A study of Mus musculus with 12 samples.

Results

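The mouse miRNA hairpins mmu-mir-199a-1, mmu-mir-199a-2, mmu-mir-199b, mmu-mir-214, mmu-mir-221 and mmu-mir-222 were chosen by name, and these 6 of the 1050 hairpins with reads in the series were present in each of the 12 small RNA libraries. The sperm libraries came from male C57BL6/J mice on the AIN-93G control diet (CD), with fat at 16% of its energy, or the D12492 high-fat diet (HFD), with fat at 69% by the labels, while the methods give another fat content. By the labels feeding lasted 7 weeks from 4 weeks of age, although the study's text elsewhere gives a later start, and each of the 3 libraries per diet pooled the epididymal sperm of 3 mice. The TM4 libraries, 2 per group, came from non-treated cells (Ctrl), from cells kept for 12 h with Compound C (CC) at 10 µM, which inhibits AMPK, and from cells with Ang overexpressed from a plasmid (Ang OE). Ang encodes angiogenin, a ribonuclease that cuts tRNAs. All TM4 groups were the same mouse Sertoli cell line, and neither a vehicle for CC nor an empty vector for Ang OE is given in the sources used here. The labels do not say whether the TM4 libraries of a group came from separate cultures, so the p-values measure only the spread between these libraries.

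A miRNA hairpin is cut into a short duplex, and either arm, called 5p or 3p, can be loaded into a silencing complex that finds mRNAs mainly through the seed, bases 2 to 8 of the mature miRNA. The mir-199 and mir-214 hairpins lie opposite to dynamin genes and are known from fibroblasts and other mesenchymal cells, where the mir-199a-2 and mir-214 hairpins are carried by the noncoding transcript Dnm3os. The mir-221 and mir-222 hairpins are neighbours on the X chromosome, and their products are known for lowering the cell cycle inhibitor p27 and the receptor Kit.

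The mature sequences are shown because their identity decides which hairpins can be told apart by reads. They are RefSeq entries of build GRCm38.p6, written 5′ to 3′ with the seed in capitals.

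mmu-miR-199a-5p: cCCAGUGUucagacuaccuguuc

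mmu-miR-199a-3p: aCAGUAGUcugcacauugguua

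mmu-miR-199b-3p: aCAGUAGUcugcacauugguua

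mmu-miR-214-5p: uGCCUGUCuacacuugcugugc

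mmu-miR-214-3p: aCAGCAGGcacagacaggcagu

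mmu-miR-221-3p: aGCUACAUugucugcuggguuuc

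mmu-miR-222-3p: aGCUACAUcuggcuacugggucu

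mmu-miR-221-5p: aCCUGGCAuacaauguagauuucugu

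The 3p products of the mir-199a and mir-199b hairpins were identical at 22 of 22 positions, and both mir-199a hairpins also gave the same 5p product. The 3p products of mmu-mir-221 and mmu-mir-222 shared the whole seed but were identical at only 11 of 23 positions. Counted from 1 at the 5′ end, with the miR-221-3p base first, they differed by U9C, G10U, U11G, C12G, U13C, G14U, C15A, U16C, G17U, U20G, U22C and C23U, so the first difference lay just behind the seed. Among the mature names in the table, the seed of miR-214-3p was also held by mmu-miR-761 and that of miR-221-3p and miR-222-3p by mmu-miR-1928.

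In GRCm38.p6, mmu-mir-199a-1 lay at chr9:21496495-21496564 on the minus strand and mmu-mir-199b at chr2:32318460-32318569 on the plus strand. The mmu-mir-199a-2 hairpin at chr1:162217814-162217923 and the mmu-mir-214 hairpin at chr1:162223368-162223477 were on the plus strand with 5444 bases between them. On the minus strand of the X chromosome, mmu-mir-221 at chrX:19146294-19146388 and mmu-mir-222 at chrX:19146893-19146971 were 504 bases apart. By the GENCODE annotation of GRCm39, mmu-mir-199a-2 and mmu-mir-214 lay in an exon of the lncRNA Dnm3os and, on the opposite strand, within an intron of Dnm3. Likewise, mmu-mir-199a-1 lay in an exon of the lncRNA Gm67586 and opposite to an intron of Dnm2, and mmu-mir-199b lay opposite to an intron of Dnm1. The mmu-mir-221 and mmu-mir-222 hairpins both lay in an exon of the lncRNA Gm26652.

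The deposited files give estimated counts per hairpin with both arms added, and levels are given here as CPM, counts scaled to 1000000 miRNA reads per library. Sperm libraries held 11412945 to 14822686 miRNA reads and TM4 libraries 27651384 to 35704399. Among the sperm libraries, HFD replicate 1 and CD replicate 2 stood apart from the others. In HFD replicate 1 the summed level of 4 red blood cell miRNAs was 50595 CPM, against 25239 to 36163 CPM in the other 5, and that of 5 white blood cell miRNAs was 2181 CPM. The white blood cell sum was 1366, 1387 and 1286 CPM in CD and 1396 and 1632 CPM in the other HFD libraries. All HFD libraries thus exceeded all CD libraries, but HFD replicate 2 only narrowly. Of the members of this list, only mmu-mir-142a separated the diets. All 9 male germ cell miRNAs were detected in each sperm library, and their sum was 8750 CPM in CD replicate 2 against 3170 to 5056 CPM in the other 5. mmu-mir-202, a Sertoli cell miRNA, was at 0 to 0.178 CPM in the TM4 libraries and at 59.8 CPM in CD replicate 2 and 4.86 to 19.6 CPM in the other sperm libraries, so this marker was close to absent from the cells labelled Sertoli.

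The first comparison set the level of the 6 hairpins in sperm against that in TM4 cells. All of them were far lower in sperm. Together they took 0.205% to 0.279% of the miRNA reads of the sperm libraries and 2.17% to 2.80% of those of the TM4 libraries, a mean of 2491 ± 249 CPM (SD, n = 6) against 24859 ± 2434 CPM (SD, n = 6). The ranges of sperm and TM4 libraries did not overlap for any of the 6 hairpins, nor for 82.9% of the 590 hairpins tested between these materials.

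The gap was widest for mmu-mir-214, mmu-mir-221 and mmu-mir-222. mmu-mir-222 ranged from 133 to 169 CPM over the 6 sperm libraries, with a median of 159 CPM, and from 1797 to 3646 CPM over the TM4 libraries, with a median of 3348 CPM. mmu-mir-221 ranged from 236 to 282 CPM with a median of 259 CPM in sperm and from 3404 to 5316 CPM with a median of 5083 CPM in TM4 cells. mmu-mir-214 ranged from 124 to 195 CPM with a median of 145 CPM in sperm and from 1975 to 3519 CPM with a median of 2676 CPM in TM4 cells. The mean in TM4 cells was thus 18.9-fold, 17.8-fold and 18.1-fold that in sperm for these 3. For the mir-199 hairpins the gap was narrower, 8.33-fold for mmu-mir-199a-1, 8.37-fold for mmu-mir-199a-2 and 5.87-fold for mmu-mir-199b. The highest sperm value of any mir-199 hairpin was 772 CPM, and the lowest TM4 value was 3002 CPM.

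By rank, the order of the hairpins differed between the materials. In sperm the 3 mir-199 hairpins ranked 62nd to 76th by reads, followed by mmu-mir-221 at ranks 95 to 103, with mmu-mir-214 and mmu-mir-222 at ranks 112 to 125. In sperm, mmu-mir-214 and mmu-mir-222 overlapped in level and did not differ beyond their spread. In TM4 cells mmu-mir-199a-1, mmu-mir-199a-2 and mmu-mir-221 were highest, at 4922 to 6156 CPM in the Ctrl and CC libraries. There, mmu-mir-199b, mmu-mir-214 and mmu-mir-222 followed at 2627 to 3646 CPM, and in the Ctrl libraries these 3 overlapped in level. In the Ang OE libraries the order was mmu-mir-199a-2 and mmu-mir-199a-1, then mmu-mir-199b, mmu-mir-221, mmu-mir-214 and mmu-mir-222, with no overlap from mmu-mir-199b on.

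**Figure D1:**
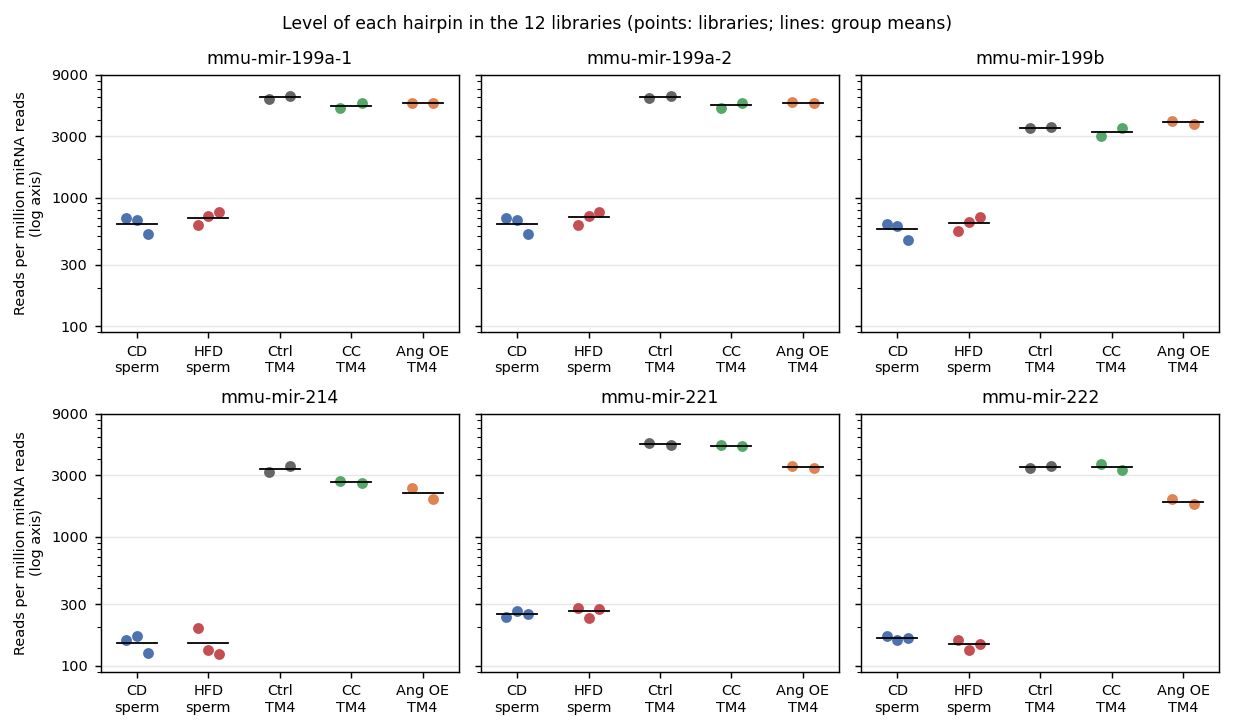
Level of each of the 6 hairpins in the 12 libraries, in CPM on a log axis, with points for libraries and lines for group means. All sperm points (CD and HFD) lie at or below 772 CPM and all TM4 points (Ctrl, CC and Ang OE) at or above 1797 CPM, and the Ang OE points of mmu-mir-221 and mmu-mir-222 lie below those of Ctrl and CC.

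The test compared the control groups, 3 CD sperm and 2 Ctrl TM4 libraries, by edgeR's quasi-likelihood test over 590 hairpins, with TMM scaling and Benjamini-Hochberg adjustment. All 6 hairpins were lower in sperm, where 36.4% of all tested hairpins were called lower, 40.7% higher and 77.1% in either direction. The log2 fold change was −3.13 (SE 0.16, adjusted p = 2.9e-07) for mmu-mir-214, −3.04 (SE 0.13, adjusted p = 1.3e-07) for mmu-mir-221 and −3.05 (SE 0.15, adjusted p = 2.9e-07) for mmu-mir-222. For mmu-mir-199a-1, mmu-mir-199a-2 and mmu-mir-199b it was −1.92, −1.92 and −1.29. Scaling to all miRNA reads instead of TMM moved the median of all tested hairpins by −1.34 on the log2 scale and the share of calls that were higher from 52.8% to 36.2%, and with it the 6 hairpins ranged from −4.46 to −2.63. With rRNA-free clean reads in its place the shift was −1.57 and the share 34.6%, and DESeq2 moved the median by 0.15. All 6 were called under each alternative tried, but the size of the difference moved with the set of hairpins and libraries in the fit. With no filter beyond 1 read, over 1000 hairpins, it was −3.78 for mmu-mir-214, −2.56 for mmu-mir-199a-1 and −1.93 for mmu-mir-199b. The fits without a Ctrl library moved alike and also tested fewer hairpins, 456 without replicate 1 and 455 without replicate 2, and the cause was not tested. Without Ctrl replicate 1 it was −4.10 for mmu-mir-214, −3.91 for mmu-mir-221, −3.97 for mmu-mir-222, −2.85 for mmu-mir-199a-1 and −2.21 for mmu-mir-199b, and without Ctrl replicate 2 these were −3.91, −3.92, −3.89, −2.75 and −2.13.

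The material cannot be told apart here from any difference in preparation. Sperm were released from cut epididymis, and in bulk samples fewer cells of a type and less RNA per cell cannot be told apart. All 5 epithelial miRNAs of the mir-200 family were detected in every sperm library at a summed 8946 to 14327 CPM, but at only 1.28 to 2.38 CPM in TM4 cells. mmu-mir-143, which made up most of the smooth muscle sum of 30652 to 56169 CPM in sperm, was at 50518, 42253 and 33223 CPM in CD and at 30211, 51684 and 55754 CPM in HFD. Like the mir-199 sum it was lowest in CD replicate 3 and HFD replicate 1 and highest in HFD replicate 3. So was the epithelial mmu-mir-141, at 4250, 4322 and 3772 CPM in CD and at 2811, 5795 and 7737 CPM in HFD. The epithelial mmu-mir-200a followed as well, but mmu-mir-200b, mmu-mir-200c and mmu-mir-429 did not. Other members of the smooth muscle list did not follow. mmu-mir-145a was at 436, 442 and 372 CPM in CD and at 401, 321 and 365 CPM in HFD. mmu-mir-133a-1 was at 16.4, 19.5 and 15.7 CPM in CD and at 20.0, 16.6 and 23.4 CPM in HFD. The part of these cells in the sperm values was not tested.

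The reads of the 3 mir-199 hairpins are not independent. The mmu-mir-199a-1 and mmu-mir-199a-2 values differed by 0.166% to 0.771% in the 12 libraries, and 36 of 36 values of the 3 hairpins were whole sixths of a read within 0.01 read, as when reads that match several hairpins are divided among them. Their sum holds whole reads and was therefore tested as well. The sum was 1819 ± 271 CPM in CD, 2033 ± 245 CPM in HFD (SD, n = 3 each), 15501 ± 458 CPM in Ctrl, 13593 ± 1005 CPM in CC and 14686 ± 231 CPM in Ang OE (SD, n = 2 each). Which mir-199a hairpin gave a read is uncertain in every library.

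The share of the sum that fell to mmu-mir-199b did not overlap between the materials. It was 30.8% to 31.3% in the 6 sperm libraries, close to equal division among the 3 hairpins. In TM4 cells it was 22.4% and 22.7% in Ctrl, 23.3% and 24.1% in CC, and 25.5% and 26.6% in Ang OE. The 5p sequence of mmu-mir-199b was not available here, so its reads were not set apart. If shared 3p reads were divided equally, at least 5.96% to 7.46% of family reads in sperm were the 5p product of the mir-199a hairpins. On the same assumption this least share was 31.7% and 32.7% in Ctrl, 27.4% and 29.8% in CC, and 19.9% and 23.4% in Ang OE. The groups of libraries did not overlap in either share, apart from CD and HFD, which overlapped in both.

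The second comparison addressed the diet. None of the 6 hairpins differed between HFD and CD sperm beyond the spread between libraries, and only mmu-mir-222 had CPM values that did not overlap. Its level was 169, 160 and 165 CPM in CD and 159, 133 and 147 CPM in HFD. The lowest CD and the highest HFD library differed by less than 1 CPM, so the separation was narrow. The log2 fold change of mmu-mir-222 was −0.29 (SE 0.18, unadjusted p = 0.143, adjusted p = 0.989 by edgeR's quasi-likelihood test).

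Its neighbour mmu-mir-221 was at 239, 267 and 252 CPM in CD and at 282, 236 and 274 CPM in HFD. These values overlapped, with the lowest and the highest of the 6 libraries both on HFD. mmu-mir-214 was at 157, 170.4 and 126 CPM in CD and at 195, 133 and 124 CPM in HFD. The highest value of mmu-mir-214 was that of HFD replicate 1, which stood apart, while the other HFD libraries lay at the low end. The mir-199 sum was 2013, 1935 and 1509 CPM in CD and 1765, 2089 and 2247 CPM in HFD. In HFD replicate 1, where mmu-mir-214 was highest, the sum was at its lowest for that diet.

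By edgeR's quasi-likelihood test, 0 of the 6 hairpins were called, with 0.0% of all 451 tested hairpins called, and at an unadjusted p under 0.05 these counts were 0 of 6 and 31 of 451. DESeq2 called 8 hairpins, none of them a member. The log2 fold change was 0.05 for mmu-mir-199a-1 and mmu-mir-199a-2, 0.06 for mmu-mir-199b and the sum, −0.11 for mmu-mir-214 and −0.05 for mmu-mir-221. That of mmu-mir-221 turned positive, to 0.06 and 0.15, when the library size was all miRNA reads or the clean reads without rRNA, which moved the median of all hairpins by 0.11 and 0.19, and that of mmu-mir-214 turned to 0.07 with the latter. One of the 6 hairpins, mmu-mir-222, did not overlap in CPM, where 6.21% of all tested hairpins did not. For the libraries that stood apart, the fits without them also called none of the 6. Without HFD replicate 1, the log2 fold change was 0.23 for mmu-mir-199a-1, −0.24 for mmu-mir-214 and −0.26 for mmu-mir-222, with adjusted p = 0.520, 0.503 and 0.453 by the same test. Without CD replicate 2 these were 0.011, −0.11 and −0.39, with adjusted p = 0.9995 for each.

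The third comparison asked what CC, the AMPK inhibitor, did to the hairpins in TM4 cells. None of the 6 passed the edgeR test. mmu-mir-214 had the largest difference, with 3166 and 3519 CPM in Ctrl and 2724 and 2627 CPM in CC, values that did not overlap. For mmu-mir-199a-1 the Ctrl libraries were at 5849.6 and 6126 CPM and the CC libraries at 4922 and 5412 CPM, also without overlap. The mmu-mir-199a-2 values, 5886 and 6156 CPM against 4959 and 5441 CPM, repeat these because the reads are shared. mmu-mir-199b overlapped, at 3441 and 3542 CPM in Ctrl and 3002 and 3450.3 CPM in CC.

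The X-linked pair differed by no more than the spread between libraries. mmu-mir-221 was at 5316 and 5143 CPM in Ctrl and at 5149 and 5022 CPM in CC. mmu-mir-222 was at 3424 and 3515 CPM in Ctrl and at 3646 and 3272 CPM in CC. For both, the CC range overlapped the Ctrl range.

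In the edgeR fit of all 6 TM4 libraries, 0 of the 6 hairpins were called at an adjusted p under 0.05, against 4.13% of the 533 hairpins tested, or 22. At an unadjusted p under 0.05 the counts were 3 of 6 and 94 of 533. DESeq2 called 28 hairpins and none of the members, while ComBat-seq with the replicate number as batch, followed by edgeR, called 41 hairpins, mmu-mir-199a-1 (−0.23, adjusted p = 0.0464) and mmu-mir-199a-2 (−0.23, adjusted p = 0.0464) among them. Over all alternatives the adjusted p of mmu-mir-199a-1 ranged from 0.0464 to 0.736. The log2 fold change was −0.32 (SE 0.11, adjusted p = 0.130) for mmu-mir-214, −0.19 (SE 0.10, adjusted p = 0.300) for the mir-199 sum, −0.03 for mmu-mir-221 and 0.0014 for mmu-mir-222. In CPM, 3 of the 6 hairpins did not overlap, where 47.1% of all tested hairpins did not. The count of 22 rested on both CC libraries: leaving out either one left 0 calls.

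The fourth comparison addressed Ang OE. Relative to Ctrl, mmu-mir-222, mmu-mir-221 and mmu-mir-214 fell, while the mir-199 sum and the 2 mir-199a hairpins did not pass the test. The value given to mmu-mir-199b, largely a division of shared reads, was called higher under TMM scaling. The fall was deepest for mmu-mir-222, which was at 3424 and 3515 CPM in Ctrl and at 1963 and 1797 CPM in Ang OE. From the Ctrl mean to the Ang OE mean it fell by 45.8%. mmu-mir-221 was at 5316 and 5143 CPM in Ctrl and at 3545 and 3404 CPM in Ang OE, and the mean fell by 33.6%. mmu-mir-214 was at 3166 and 3519 CPM in Ctrl and at 2387 and 1975 CPM in Ang OE, and the mean fell by 34.8%. For each of the 3 hairpins both Ang OE libraries were below both Ctrl libraries, and the gap was wider than the distance between replicates.

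The mir-199 sum was at 15177 and 15825 CPM in Ctrl and at 14849 and 14522 CPM in Ang OE. The values of the single mir-199 hairpins divide these reads, so they do not show which hairpin changed. mmu-mir-199b was given 3441 and 3542 CPM in Ctrl and 3949 and 3697 CPM in Ang OE, a mean 9.49% above that of Ctrl. mmu-mir-199a-1 was given 5849.6 and 6126 CPM in Ctrl and 5429 and 5393 CPM in Ang OE, and its mean fell by 9.63%. These values moved with the least 5p share given above, 31.7% and 32.7% in Ctrl and 19.9% and 23.4% in Ang OE.

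By edgeR's quasi-likelihood test, the log2 fold change was −0.61 (SE 0.10, adjusted p = 0.000136) for mmu-mir-222, −0.32 (SE 0.09, adjusted p = 0.0136) for mmu-mir-221 and −0.34 (SE 0.11, adjusted p = 0.0174) for mmu-mir-214. For mmu-mir-199b it was 0.40 (SE 0.10, adjusted p = 0.00419), and for the sum 0.16 (SE 0.10, adjusted p = 0.208). Hence 3 of the 6 hairpins were called lower, where 14.1% of all 533 tested hairpins were, and 1 higher, where 24.2% were. In either direction 4 of 6 were called, against 38.3% of all. All 6 had CPM values that did not overlap, as did 70.4% of all tested hairpins. This contrast shares its Ctrl libraries with that of CC.

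The choice of scaling moved every value of this contrast. With all miRNA reads as library size, the median of all tested hairpins moved by −0.27 on the log2 scale and the share of calls that were higher went from 63.2% to 36.8%. With the clean reads without rRNA the shift was −0.14 and the share 48.8%. With all miRNA reads the log2 fold change was −0.88 for mmu-mir-222, −0.59 for mmu-mir-221 and −0.62 for mmu-mir-214, all called. mmu-mir-199b was at 0.13 (adjusted p = 0.354 by edgeR), no longer called, and mmu-mir-199a-1 changed sign, from 0.13 to −0.15. Over the 14 alternatives mmu-mir-222 was called in each, between −0.88 and −0.56, with adjusted p of 1.4e-09 to 0.00152. mmu-mir-221 lost its call in edgeR without Ctrl replicate 1, at −0.31, or Ctrl replicate 2, also at −0.31. mmu-mir-214 lost its call without Ctrl replicate 2, at −0.23, or Ang OE replicate 2, at −0.27. Without Ang OE replicate 1 it was at −0.53. The call of mmu-mir-199b was also lost with the clean reads without rRNA, at 0.26 (adjusted p = 0.113), and without Ang OE replicate 1, at 0.31 (adjusted p = 0.0664 by edgeR).

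**Figure D2:**
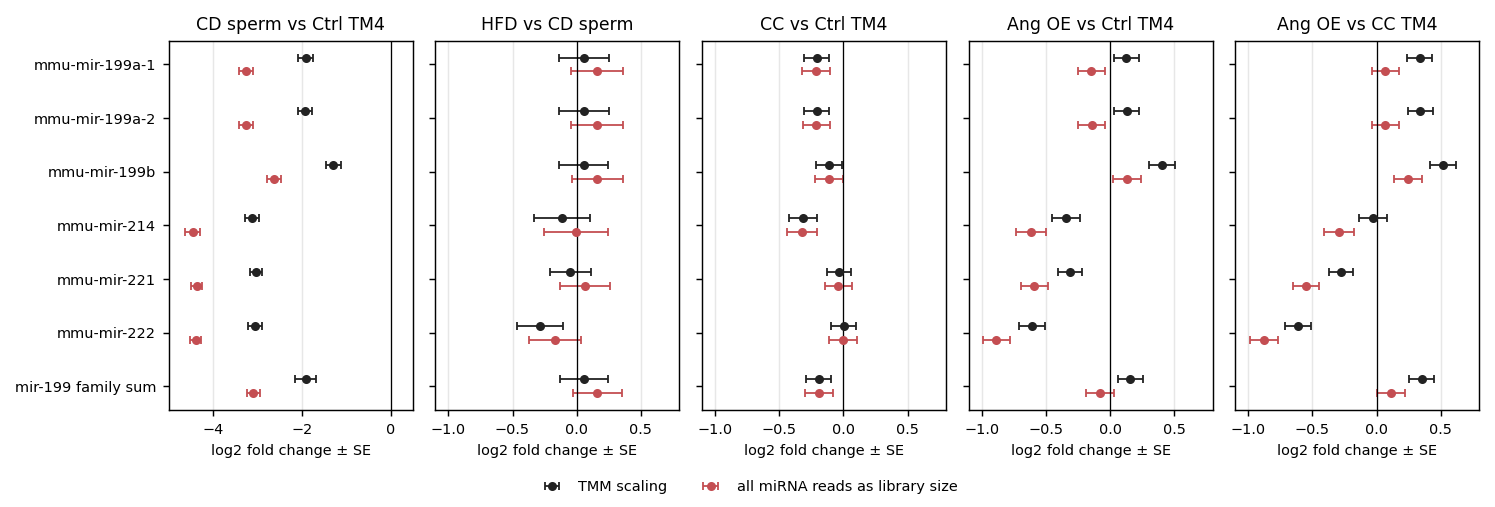
Log2 fold change with its standard error for each hairpin and for the mir-199 family sum in 5 contrasts, with TMM scaling in black and all miRNA reads as library size in red. In Ang OE against Ctrl, mmu-mir-222 lies at −0.61 and −0.88, and mmu-mir-199a-1 changes sign with the scaling, from 0.13 to −0.15.

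Between Ang OE and CC, the X-linked hairpins were again lower in Ang OE. mmu-mir-222 was at 3646 and 3272 CPM in CC, and at 1963 and 1797 CPM in Ang OE, a log2 fold change of −0.61 (SE 0.10, adjusted p = 0.000122 by edgeR's quasi-likelihood test). mmu-mir-221 was at 5149 and 5022 CPM in CC and at 3545 and 3404 CPM in Ang OE, with −0.28 (SE 0.09, adjusted p = 0.0235). The mmu-mir-222 difference was called under all 14 alternatives, between −0.88 and −0.55, and that of mmu-mir-221 under 13 of 14, the exception being without CC replicate 1 (adjusted p = 0.0701 by edgeR).

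The mir-199 sum was higher in Ang OE than in CC under TMM scaling, by 0.35 (SE 0.10, adjusted p = 0.00721 by edgeR). It was at 0.11 (adjusted p = 0.421) with all miRNA reads as library size and at 0.23 (adjusted p = 0.155) with the clean reads without rRNA, and it also lost its call without CC replicate 1 (adjusted p = 0.0829 by edgeR). The single hairpins, which divide these reads, were at 0.34 (SE 0.10, adjusted p = 0.0104) for mmu-mir-199a-1, 0.34 for mmu-mir-199a-2 and 0.51 (SE 0.10, adjusted p = 0.000549 by edgeR) for mmu-mir-199b. mmu-mir-214 did not pass the test, at −0.03 (SE 0.11, adjusted p = 0.853). Called were 3 of 6 higher, all of them mir-199 hairpins with shared reads, and 2 of 6 lower, where 26.3% and 15.2% of all 533 were, and 5 of 6 in either direction against 41.5%. In CPM 4 of the 6 hairpins did not overlap, against 72.6% of all. With all miRNA reads as library size, the mir-199 values fell to 0.07, 0.07 and 0.24 and lost their calls, while mmu-mir-214, at −0.30 (adjusted p = 0.0450 by edgeR), gained one. That scaling moved the median of all hairpins by −0.27 and the share of calls that were higher from 63.3% to 36.7%, and the clean reads without rRNA moved them by −0.15 and to 52.7%. The mmu-mir-199a-1 and mmu-mir-199a-2 calls held in only 5 of 13 alternatives each, with adjusted p from 0.0015 to 0.626.

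Because a ratio of 2 hairpins of the same library does not depend on the scaling, the neighbours were also compared with each other. The log2 ratio of mmu-mir-221 to mmu-mir-222 was 0.63 and 0.55 in Ctrl, 0.50 and 0.62 in CC, and 0.85 and 0.92 in Ang OE. The Ang OE libraries lay above all Ctrl and CC libraries, as the CPM of mmu-mir-222 fell further than that of mmu-mir-221. In sperm this log2 ratio was 0.50, 0.74 and 0.61 in CD and 0.82, 0.83 and 0.90 in HFD. The HFD libraries thus lay above the CD libraries, as they did by a narrow margin for the white blood cell sum. mmu-mir-142a, a miRNA of blood cells in that list, was at 521, 575 and 484 CPM in CD and at 1179, 688 and 792 CPM in HFD. The list's other members, mmu-mir-146a, mmu-mir-150, mmu-mir-155 and mmu-mir-223, overlapped between the diets. Of these, mmu-mir-146a, mmu-mir-150 and mmu-mir-155 were lowest in HFD replicate 2. The part of such cells in the ratio was not tested. The HFD mean exceeded the CD mean by 0.23 on the log2 scale (exact 2-sided permutation test, p = 0.1, the smallest p that 3 against 3 libraries allow, adjusted p = 0.2 over 4 tests). With 2 libraries per group no such p below 0.333 is possible, so the TM4 groups were not tested. Between all sperm and all TM4 libraries the means were 0.73 ± 0.15 and 0.68 ± 0.17 (SD, n = 6 each). Their difference, 0.05, was within the spread (exact permutation test, p = 0.563). That spread includes the differences between diets and between TM4 groups, and the means of the control groups were 0.62 in CD and 0.59 in Ctrl.

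The log2 ratio of mmu-mir-214 to the mir-199 sum separated the materials. It was −3.68, −3.50 and −3.58 in CD, −3.18, −3.97 and −4.18 in HFD, −2.26 and −2.17 in Ctrl, −2.24 and −2.44 in CC, and −2.64 and −2.88 in Ang OE. Every sperm library lay below every TM4 library, by a mean of −1.24 on the log2 scale. With diets and TM4 groups pooled, the exact 2-sided permutation test gave p = 0.00216, the smallest it can give (adjusted p = 0.00864 over 4 tests). The same reads gave the wider gap of mmu-mir-214 described above. The ratios mean 9.04 to 18.1 mir-199 reads per mir-214 read in sperm and 4.50 to 7.35 in TM4 cells. Between the diets the difference was −0.19 (exact permutation test, p = 0.6), and the HFD libraries spread widely, with an SD of 0.53 against 0.09 in CD. That spread came with HFD replicate 1, which stood apart: without it the difference was −0.49, with both other HFD libraries below all CD libraries (exact permutation test, p = 0.2, the smallest that 2 against 3 libraries allow), and without HFD replicate 3 it was 0.013. Without CD replicate 2 it was −0.15 (exact permutation test, p = 0.8).

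**Figure D3:**
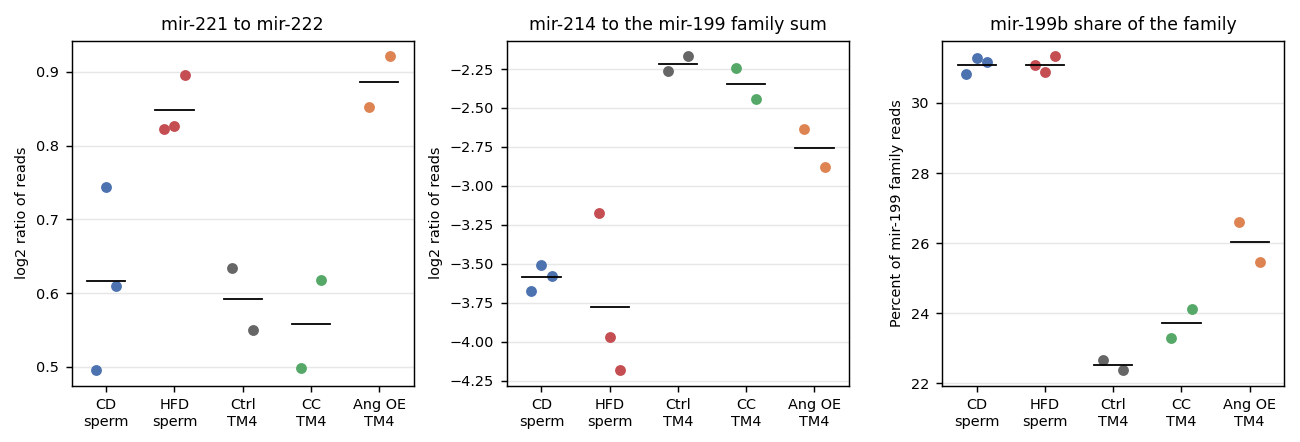
Log2 ratio of mmu-mir-221 to mmu-mir-222 reads, log2 ratio of mmu-mir-214 to the mir-199 family sum, and percent of mir-199 family reads given to mmu-mir-199b, with points for libraries and lines for group means. The 2 Ang OE libraries lie at 0.85 and 0.92 in the left panel, above Ctrl and CC, and all sperm libraries lie below all TM4 libraries in the middle panel and above them, at 30.8% to 31.3%, in the right panel.

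Other hairpins had profiles like those of the 6, by the root mean square difference of log2(CPM + 1) over the 12 libraries, each profile centred on its mean, among 326 hairpins with a mean of at least 100 reads. This likeness is a description in which the sperm and TM4 difference weighs most. The mir-199 sum was most like mmu-mir-152 at 0.15, mmu-mir-148b at 0.22 and mmu-mir-29a at 0.23, where the median of all candidates was 1.03. mmu-mir-214 was most like mmu-mir-365-1 at 0.14, mmu-mir-365-2 at 0.16 and mmu-mir-351 at 0.19, against a median of 1.52. For mmu-mir-221 the nearest were mmu-mir-877 at 0.09, mmu-mir-351 at 0.17 and mmu-mir-8112 at 0.18, and the same 3 hairpins were nearest to mmu-mir-222, at 0.15, 0.21 and 0.19. The medians for these were 1.49 and 1.54. Some of the nearest hairpins were low in sperm. In CD the means were 2.5 CPM for mmu-mir-877, 2.2 CPM for mmu-mir-8112, 7.1 CPM for mmu-mir-365-1 and 7.5 CPM for mmu-mir-365-2. At such levels the 1 CPM added before the log shrinks the step to TM4 cells.

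These hairpins were chosen on libraries that include Ang OE and Ctrl, so their values in that contrast are a description without a test. The log2 fold change was −0.36 (SE 0.12) for mmu-mir-877 and −0.30 (SE 0.11) for mmu-mir-351. mmu-mir-877 is cut from an intron without the microprocessor, and mmu-mir-351 belongs to the mir-125 family and lies on the X chromosome. mmu-mir-8112 was at −0.20 and the mmu-mir-365 hairpins were at −0.12 and −0.08. The hairpins most like the mir-199 sum were at 0.23 for mmu-mir-152, 0.02 for mmu-mir-148b and 0.07 for mmu-mir-29a, beside 0.16 for the sum itself.

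**Figure D4:**
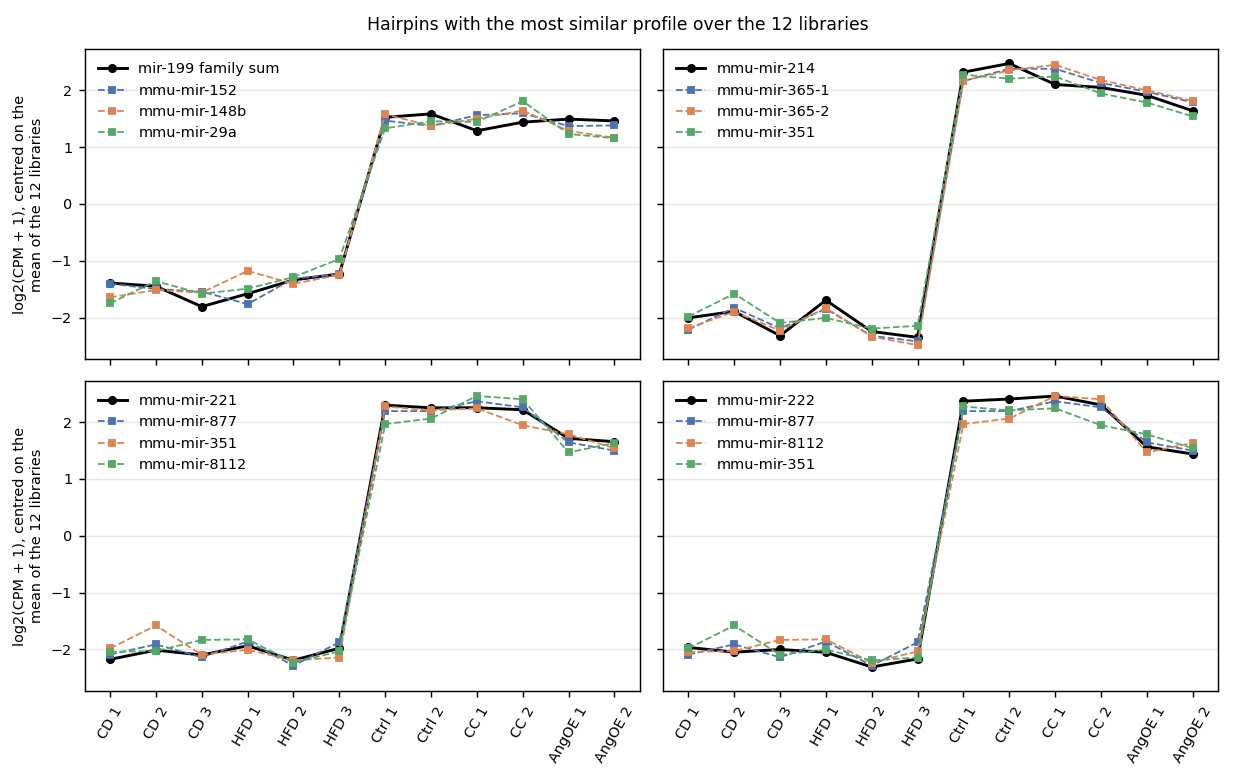
Centred log2(CPM + 1) of the mir-199 family sum, mmu-mir-214, mmu-mir-221 and mmu-mir-222 (black) over the 12 libraries, with the 3 hairpins of most similar profile (coloured). The step between the 6 sperm and the 6 TM4 libraries dominates each panel, and the Ang OE libraries of mmu-mir-221 and mmu-mir-222 lie below those of Ctrl and CC.

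A list of 12 other hairpins known from fibroblasts and mesenchymal cells was set beside them, namely mmu-mir-143, mmu-mir-145a, mmu-mir-21a, mmu-mir-22, mmu-mir-31, mmu-mir-100, mmu-mir-125b-1, mmu-mir-125b-2, mmu-mir-152, mmu-mir-29a, mmu-mir-29b-1 and mmu-mir-29b-2. In CD sperm against Ctrl TM4 cells, 9 of these 12 were lower, 2 higher and 1 was not called, where 36.4% and 40.7% of all tested hairpins were called lower and higher, with a median log2 fold change of −1.36 against −2.48 for the 6 hairpins and −0.13 for all tested. With all miRNA reads as library size 11 were lower and 0 higher, where 342 and 194 of all 590 tested hairpins were. With the clean reads without rRNA these counts were 12 and 0, where 354 and 187 of all 590 were. The exceptions under TMM were mmu-mir-100, at 4371 to 5794 CPM in CD and 6956 and 8345 CPM in Ctrl, and mmu-mir-143, with TMM log2 fold changes of 0.81 and 1.05 that became −0.53 and −0.29 with all miRNA reads as library size. HFD against CD and CC against Ctrl gave 0 calls by edgeR among the 12, with 0 and 3 at an unadjusted p under 0.05.

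In Ang OE against Ctrl, 6 of the 12 were called higher and 3 lower under TMM, where 24.2% and 14.1% of all tested hairpins were, with a median of 0.27 against 0.06 for all tested. With all miRNA reads as library size these counts were 4 and 4, where 81 and 139 of all 533 tested hairpins were called higher and lower. mmu-mir-21a, a miRNA raised in many growing cells, was at 62636 and 63124 CPM in Ctrl and at 106002 and 115668 CPM in Ang OE, a log2 fold change of 1.09 (adjusted p = 3.9e-07 by edgeR). mmu-mir-143, abundant in smooth muscle and fibroblasts, was at 54354 and 48544 CPM in Ctrl and at 93152 and 127843 CPM in Ang OE, a log2 fold change of 1.38 (adjusted p = 4.1e-06). These 2 hairpins thus held more of the miRNA reads in the Ang OE libraries. The part of this in the CPM of the other hairpins was not tested. mmu-mir-100 fell by 0.70 on the log2 scale (adjusted p = 0.000126). mmu-mir-22 rose by 0.30 (adjusted p = 0.0149) under TMM, but was at 0.03 with all miRNA reads as library size. The smooth muscle sum, 49715 and 55567 CPM in Ctrl and 94556 and 129039 CPM in Ang OE, moved with mmu-mir-143. Its other members were at far lower levels. mmu-mir-145a was at 1213 and 1171 CPM in Ctrl and at 1404 and 1196 CPM in Ang OE, a log2 fold change of 0.40 (adjusted p = 0.00776) under TMM and 0.13 (adjusted p = 0.411) with all miRNA reads as library size. The hairpins mmu-mir-133a-1 and mmu-mir-133a-2 were each at 0.296 and 0.317 CPM in Ctrl and 0.0928 and 0.0890 CPM in Ang OE, and mmu-mir-1a-1 and mmu-mir-1a-2 were at 0 in the TM4 libraries except Ang OE replicate 2, with 1.5 reads each. From Ctrl to Ang OE the germ cell sum went from 1047 and 1090.3 to 1964 and 2066 CPM, carried by mmu-mir-34c at 979.5 and 939.8 CPM in Ctrl and 1956 and 1834 CPM in Ang OE, while mmu-mir-741, mmu-mir-871, mmu-mir-880, mmu-mir-883a and mmu-mir-184 lay between 0 and 0.593 CPM in the TM4 libraries. The endothelial sum went from 103 and 107 to 194 and 219 CPM. The red blood cell sum went from 2737 and 2857 to 1762 and 1784 CPM, almost all of it mmu-mir-486a and mmu-mir-486b, with mmu-mir-451a and mmu-mir-144 between 0 and 0.952 CPM in the TM4 libraries. The part of these marker lists in the fall of mmu-mir-222, mmu-mir-221 and mmu-mir-214 was not tested. Against CC, 4 of the 12 were called higher in Ang OE and 3 lower, where 26.3% and 15.2% of all were. With all miRNA reads as library size the counts were 4 and 5, where 83 and 143 of all 533 were called higher and lower.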

How the data were processed

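Small RNA was sequenced from 6 sperm and 6 TM4 libraries, grouped by the labels. The authors checked read quality with FastQC 0.12.0 and trimmed reads with Trimmomatic 0.40 (versions per the submitters' processing notes). They kept 15 to 45 nt and annotated the reads with SPORTS1.1, allowing 1 mismatch (the notes also list build mm10). The deposited files hold estimated counts per hairpin, not normalized, in which reads that match several hairpins are divided. Genome-matched and unmatched reads were added (no member read lacked a genome match, so that share was not tested) and rounded for testing.

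Hairpins that reached 10 reads in 3 sperm or 2 TM4 libraries were tested with edgeR 4.0.16 (R 4.3.3; quasi-likelihood, TMM), TM4 groups in a model of all 6 libraries, and called at a Benjamini-Hochberg adjusted p under 0.05 over all hairpins tested. The scripts were tested on simulated data. Alternatives were DESeq2 1.42.0, other library sizes and filters, ComBat-seq (sva 3.50.0) with the replicate number as batch since the study's batches are not given in the sources used here, a replicate block, the summed mir-199 row, and libraries left out. Ratios were tested by exact permutation (scipy 1.17.1). Named by rule were the 6 hairpins, the 3 nearest to each of 4 profiles, and the 4 most abundant of 12 mesenchymal hairpins. The other hairpins named are members of the mesenchymal and cell type marker lists, and those markers given with values were singled out after their values were seen. Members and lists were chosen with earlier results of these data known. Depth was 31710445 to 64038150 clean reads per library, and replicates differed by more than counting noise (chi-square per degree of freedom 213 to 1316).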

Additional observations from a re-analysis of the deposited data

How the results depend on the processing

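All 6 hairpins stayed lower in CD sperm than in Ctrl TM4 cells, and mmu-mir-222 stayed lower in Ang OE than in Ctrl and CC, under each alternative run. Counts of all hairpins called became 8 for HFD against CD with DESeq2 and, for CC against Ctrl, 35 with the replicate block and 41 with ComBat-seq, which also called 2 members, mmu-mir-199a-1 and mmu-mir-199a-2, or 0 to 26 with 1 library left out. Members called in Ang OE against Ctrl numbered 2 to 3 with 1 library left out. In Ang OE against CC they numbered 3 with DESeq2, with all miRNA reads or clean reads without rRNA as library size, with at least 100 reads, and with the 2 groups alone, and 2 to 5 with 1 library left out. Deviations of same-numbered libraries correlated at −0.35 to 0.07 in sperm and −0.11 to 0.17 in TM4 cells. These values showed no clear pairing by number. With 2 libraries per TM4 group, each pair of groups gives only 1 independent value, so this check cannot exclude a pairing. The replicate block gave 0, 243 and 407 calls for HFD against CD, Ang OE against CC and CD against Ctrl, and changed no member call.

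Among the 6 hairpins and the mir-199 sum, directions turned as follows, none of them for a called value. In CD sperm against Ctrl TM4 cells 2 called mesenchymal hairpins also turned, mmu-mir-100 to −0.53 and mmu-mir-143 to −0.29, with all miRNA reads as library size. In HFD against CD, mmu-mir-221 was at 0.063 with all miRNA reads, 0.15 with clean reads and 0.012 with at least 100 reads, and mmu-mir-214 at 0.069 with clean reads. With 1 library left out, these ranged from −0.092 to 0.042 and −0.24 to 0.070, mmu-mir-199a-1 from −0.027 to 0.28, mmu-mir-199a-2 from −0.028 to 0.28, mmu-mir-199b from −0.018 to 0.27, the mir-199 sum from −0.040 to 0.28, and the log2 ratio of mmu-mir-214 to it from −0.49 to 0.013. In CC against Ctrl, mmu-mir-222 was at −0.0045 with all miRNA reads, −0.0009 with the replicate block, −0.0025 with the 2 groups alone, −0.030 with ComBat-seq, −0.0055 with the mir-199 hairpins summed and −0.11 to 0.086 with 1 library left out, and mmu-mir-221 at 0.0069 without a filter. In Ang OE against Ctrl, all miRNA reads gave −0.15, −0.14 and −0.078 for mmu-mir-199a-1, mmu-mir-199a-2 and the sum, and clean reads −0.017 and −0.014 for the first 2. In Ang OE against CC, mmu-mir-214 ranged from −0.22 to 0.054 with 1 library left out. The causes were not tested. Genome-matched reads alone left every member count as it was and changed no member call. Where 1 library of a TM4 group was left out, the other was assumed to vary like the remaining groups. The lowest member count was 1648 reads.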
